A study of Mus musculus with 4 samples.

Results

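Regions of the mouse genome that replicated early in S phase on every array of the series are described here. The cells were mouse embryonic fibroblasts (connective tissue cells grown from embryos), and 4 two-colour tiling arrays were hybridised, 1 for each group. The groups were a Suv4-20h knockout (KO), its control, an induced Suv4-20h mutant and the same mutant not induced. In the KO the floxed Suv4-20h1 allele was deleted, for which the labels describe 4-hydroxytamoxifen at 1 mM over 24 hours. They do not say how induction was done, what the mutant allele is or what the control received (the series text calls it WT), and the number of the cell line is not the same throughout. All cells took up the nucleotide analogue BrdU (50 µM, 1 hour) and were sorted by DNA content, giving 1 fraction from early and 1 from late S phase. BrdU-labelled DNA was precipitated, amplified over the whole genome and hybridised as a pair, the early fraction in Cy3 and the late one in Cy5, with no dye swap. Timing is log2 of early over late signal after subtraction of the array's autosomal probe median, so a higher value means earlier replication.

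Probes were averaged in 200 kb bins of the mm9 build on chromosomes 1 to 19, and bins with at least 5 probes were kept. A bin was taken as early on all arrays when its timing was 0.5 or more on each of the 4 arrays. This held for 2499 of 11314 bins, which is 499.8 of 2262.8 Mb, or 22.1% of the bins measured. These bins held 43139 of 159198 probes. The same arrays chose the bins, so their levels are a description and carry no test. Since each group is a single array, variation between cultures is unknown and conditions are compared without a test.

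Eukaryotic chromosomes replicate as large domains whose origins fire together, some at the start of S phase and others near its end. Early domains are known in mammalian cells as gene-rich, transcribed and open chromatin in the nuclear interior, while late domains tend to be gene-poor and to lie at the nuclear lamina. Suv4-20h enzymes methylate histone H4 after a first methyl group has been added by another enzyme, and the mark they leave is best known from heterochromatin and has been linked to origin licensing. Probes are placed on mm9, for which no gene annotation was used here, and the domains are therefore given by position without gene names. For the same reason Bmp1 and Dppa2, which the submitters used as the early and the late control locus in PCR checks of the fractions, have no value here. The arrays measure DNA, so the labelled cell type was not checked against marker genes.

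Bins early on all arrays lay at the right of the timing distribution on each array, which the rule requires. They were part of the 3672 bins at 0.5 or more in KO, 3175 in control, 3882 in induced and 3646 in non-induced cells. Their timing averaged 0.87 ± 0.18 in KO and 0.86 ± 0.17 in control cells (SD over 2499 bins). It averaged 1.06 ± 0.19 on the induced array and 0.88 ± 0.18 on the non-induced array. The highest bin reached 1.55 in KO cells, 1.59 in control cells, 1.76 on the induced array and 1.52 on the non-induced array. Precision within a bin was set by its probes, with a median SE over probes of 0.12, 0.12, 0.14 and 0.14 in the same order of arrays. Over all 11314 bins the mean was -0.24 in KO cells, -0.06 in control cells, -0.28 on the induced array and -0.11 on the non-induced array. The distance between the 10th and the 90th percentile of all bins was 2.32 on the KO array, 1.82 on the control array, 2.70 on the induced array and 2.08 on the non-induced array, so that a fixed threshold is not equally strict on each.

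**Figure D1:**
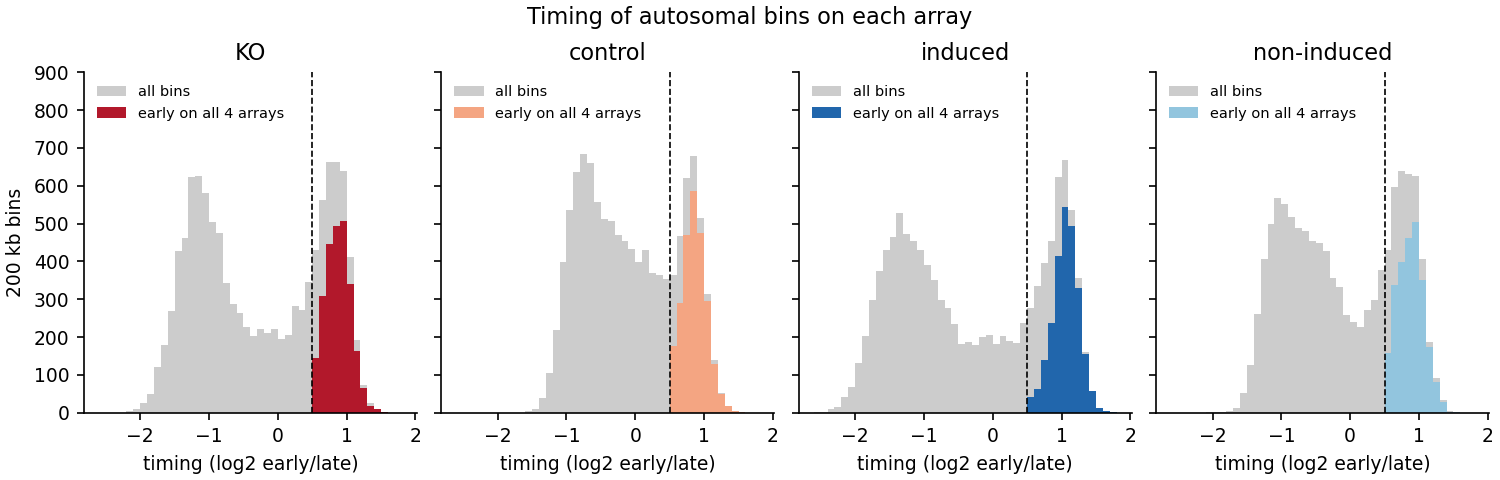
Histograms of timing (log2 of early over late signal, horizontal axis) in 200 kb autosomal bins (vertical axis, number of bins) on the KO, control, induced and non-induced arrays. Grey shows all 11314 bins, colour the 2499 bins early on all 4 arrays, and the dashed line the threshold of 0.5. The coloured bins average 1.06 on the induced array and 0.86 to 0.88 on the other arrays.

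The threshold cut through a continuum. Just inside it, the bin of chromosome 7 from 4600001 to 4800000 stood at 0.85 in KO, 0.50 in control, 0.65 in induced and 0.74 in non-induced cells. Just outside it, a bin on chromosome 6 from 84400001 to 84600000 had 0.62 in KO, 0.64 in control, 0.76 in induced and 0.50 in non-induced cells, the last value falling short by less than the rounding. The lowest of the 4 values lay between 0.5 and 0.6 in 433 bins and between 0.4 and 0.5 in 417 bins. A bin was early on no array in 6742 cases, on 1 array in 587, on 2 arrays in 666 and on 3 arrays in 820 cases.

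A measure that the choice of bins did not use comes from leaving out each array in turn, choosing bins on the other 3 arrays and then reading the array left out. Of 2707 bins chosen without the KO array, 92.3% were at 0.5 or more on that array, where 32.5% of all bins were. Of 2936 bins chosen without the control array, 85.1% were at 0.5 or more there, against a background of 28.1%. For the induced array the share was 99.2% of 2519 bins, with a background of 34.3%. For the non-induced array it was 94.2% of 2654 bins, with a background of 32.2%. Early domains were thus found again on an array that had no part in choosing them, least often on the control array, which also had the narrowest range of timing. The induced and non-induced arrays share a slide, as do KO and control, so the array left out was never independent of all the others. Probe noise was looked at in the same way: of 2229 bins chosen on odd probes, 1834 (82.3%) were at 0.5 or more on all arrays over even probes. Mean timing over even and odd probes of those bins was 0.84 and 0.89 in KO, 0.83 and 0.87 in control, 1.03 and 1.09 in induced and 0.85 and 0.91 in non-induced cells.

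Departures from this rule were few and some were large. Without the KO array as a criterion, 16 of 2707 bins had KO timing below 0. The lowest was on chromosome 9 from 87600001 to 87800000, with timing of -1.31 ± 0.16 in KO, 0.74 ± 0.11 in control, 0.71 ± 0.10 in induced and 0.55 ± 0.15 in non-induced cells (SE over 13 probes). The next bin along, from 87800001 to 88000000, had -0.52 in KO, 1.03 in control, 0.76 in induced and 0.98 in non-induced cells over 8 probes. A separate bin on chromosome 9 from 23200001 to 23400000 had -0.67 in KO and 0.84, 0.91 and 0.87 in control, induced and non-induced cells. In these 3 bins timing was below 0 on the KO array alone. The control array gave the opposite pattern in 37 of 2936 bins, which were early on the other 3 arrays and below 0 in control. Chromosome 9 again held the lowest, from 95600001 to 95800000, with 0.72 ± 0.10 in KO, -0.47 ± 0.08 in control, 0.61 ± 0.12 in induced and 0.75 ± 0.13 in non-induced cells (SE over 20 probes). On the non-induced array 2 such bins were found and on the induced array none, its lowest value being 0.20, on chromosome 11 from 29200001 to 29400000.

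Among the early bins themselves, the range between the highest and the lowest array within a bin had a median of 0.33. It was under 0.5 in 2213 bins (88.6%). The rule bounds this range, since every value had to reach 0.5. KO minus control ran from -0.57 to 0.68 in the early bins. In 3489 bins chosen on the induced and non-induced arrays alone, it ran from -2.05 to 1.35. As centred, the induced array was the highest of the 4 in 1859 bins (74.4%) and the lowest in 79. It also had the widest spread over all bins (2.70), and the ranking depended on it. After scaling to equal spread, induced was above non-induced in 760 early bins (30.4%), where 32.4% of all bins were. As centred this held for 2233 early bins (89.4%), where 37.9% of all bins were. Induced was above KO in 1499 early bins (60.0%) after scaling, where 53.5% of all bins were. As centred it was above KO in 2103 (84.2%), where 52.6% of all bins were. The lowest array was control in 900 bins, non-induced in 763 and KO in 757. Ranking of the early bins was only partly shared: Pearson's r over the 2499 bins was 0.71 between induced and non-induced, 0.42 between KO and control and 0.31 between KO and induced, where over all bins it was 0.96, 0.85 and 0.87. These correlations are across bins, which are not independent and share probes on all arrays, and the restricted range lowers them.

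The earliest bins reached values above 1.2 on every array. On chromosome 9 from 41400001 to 41600000, timing was 1.36 ± 0.10 in KO, 1.39 ± 0.10 in control, 1.48 ± 0.12 in induced and 1.32 ± 0.15 in non-induced cells (SE over 9 probes). On chromosome 3 from 84200001 to 84400000 it was 1.29 ± 0.09 in KO, 1.27 ± 0.10 in control, 1.49 ± 0.10 in induced and 1.27 ± 0.14 in non-induced cells (SE over 20 probes). Chromosome 19 held 2 such bins near each other, from 56000001 to 56200000 and from 56800001 to 57000000, with 1.26 and 1.25 in KO, 1.25 and 1.37 in control, 1.66 and 1.64 in induced and 1.33 and 1.27 in non-induced cells. The remaining ones of the 6 bins with the highest lowest-array value were chromosome 18 from 32600001 to 32800000, where the arrays lay between 1.24 and 1.33, and chromosome 3 from 108800001 to 109000000, where they lay between 1.22 and 1.49. In all 6 bins the arrays differed from each other by 0.41 or less. At the other extreme, the widest range was 0.94, on chromosome 11 from 44000001 to 44200000, with 1.47 in KO, 0.97 in control, 0.53 in induced and 0.73 in non-induced cells over 7 probes. On chromosome 1 from 64600001 to 64800000 the order was turned, with 0.54 ± 0.12 in KO, 0.87 ± 0.10 in control, 1.40 ± 0.16 in induced and 1.17 ± 0.12 in non-induced cells (SE over 16 probes).

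Early bins lay together. Adjacent bins joined into 692 domains with a median length of 0.6 Mb, and 2313 of the 2499 bins (92.6%) had an early neighbour. Single bins made up 186 domains, 316 domains had 2 to 4 bins, 148 had 5 to 9, and 42 had 10 or more. The 42 longest covered 102.4 Mb, or 20.5% of the early bins. Bins late on all arrays, at -0.5 or less, numbered 2988 and joined into 955 domains with a median of 0.4 Mb and a longest of 3.4 Mb. Of these late bins 90.4% had a late neighbour, so lying together was not particular to early bins. Late domains more often ended at a bin with too few probes, at 17.9% of their edges against 2.17% for early domains, so their lengths are less complete. Timing was higher in longer domains: in single bins it averaged 0.84 in KO, 0.75 in control, 0.95 in induced and 0.83 in non-induced cells, and in domains of 10 or more bins 0.89, 0.90, 1.11 and 0.90. These differences are within 1 SD over bins (0.16 to 0.20), and a single bin is by its definition next to bins that missed the threshold.

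The longest domain, 4.0 Mb with 20 bins, lay on chromosome 11 from 75400001 to 79400000. Timing there was 0.81 ± 0.03 in KO, 0.88 ± 0.03 in control, 1.13 ± 0.03 in induced and 0.92 ± 0.03 in non-induced cells (SE over 382 probes). Its bins ranged from 0.59 to 1.08 in KO, 0.66 to 1.17 in control, 0.83 to 1.37 in induced and 0.59 to 1.24 in non-induced cells, the lower ends being bounded by the rule. Chromosome 9 had the next, of 3.8 Mb from 59800001 to 63600000, at 0.96 in KO, 0.86 in control, 1.12 in induced and 0.88 in non-induced cells. Domains of 3.6 Mb lay on chromosome 16 from 30600001 to 34200000 (0.85 in KO, 0.93 in control, 1.09 in induced, 0.89 in non-induced) and on chromosome 1 from 135200001 to 138800000 (0.88 in KO, 0.87 in control, 1.10 in induced, 0.87 in non-induced). Chromosome 3 held one of 3.0 Mb from 101800001 to 104800000 (0.88 in KO, 0.94 in control, 1.13 in induced, 0.96 in non-induced).

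Of the other domains among the 12 described, 5 spanned 2.8 Mb and 2 spanned 2.6 Mb. Those of 2.6 Mb are part of a tie of 4 domains of 2.6 Mb, of which the 2 with the higher mean timing are among the 12. The one on chromosome 2 from 70600001 to 73400000 had the highest KO value of the 12, with 1.10 in KO, 1.01 in control, 1.13 in induced and 1.02 in non-induced cells. A further domain on chromosome 2, from 24600001 to 27400000, had 0.87 in KO, 0.86 in control, 1.08 in induced and 0.85 in non-induced cells. Chromosome 5 held a pair, from 32000001 to 34800000 and from 64400001 to 67000000, with induced values of 1.20 and 1.15, and 0.91 to 1.00 on the other arrays. The domain on chromosome 3 from 143600001 to 146400000 had the largest KO minus control difference of the 12, with 1.03 in KO and 0.86 in control cells and 0.17 ± 0.03 between them (SE over 212 probes). The domain on chromosome 4 from 57000001 to 59600000 had the lowest, with 0.93 in KO and 1.03 in control cells and -0.11 ± 0.03 between them (SE over 233 probes). On chromosome 6 from 86000001 to 88800000 timing was 0.85 in KO, 0.85 in control, 1.11 in induced and 0.86 in non-induced cells. The tied domains outside the 12, looked up after the values were seen, lay on chromosome 11 from 85600001 to 88200000 (0.84 in KO, 0.93 in control, 1.15 in induced, 0.97 in non-induced) and on chromosome 18 from 34400001 to 37000000 (0.85 in KO, 0.90 in control, 1.13 in induced, 0.94 in non-induced). Over the 12 domains, KO was above control in 6 and below it in 6, and with these ties in 6 and 8, and induced was above non-induced in all 12, by 0.10 to 0.25. Once array spreads were made equal, KO minus control was -0.38 to -0.07 and induced minus non-induced -0.16 to -0.01 in these 12 domains, below 0 in every one.

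Timing fell outward across domain edges, with the largest step between the outermost inside bin and the first bin outside. Across 380 edges of the 190 domains of 5 or more bins, the outermost inside bin averaged 0.86 in KO, 0.82 in control, 1.03 in induced and 0.87 in non-induced cells. The first bin outside, measured at 371 of these edges, averaged 0.37 in KO, 0.41 in control, 0.66 in induced and 0.54 in non-induced cells. The second averaged 0.14, 0.17, 0.38 and 0.29 in the same order, and the third 0.06, 0.09, 0.16 and 0.12. From the second bin on, these bins can belong to another early domain, which raises the averages. The SD over edges at the third was 0.85 in KO, 0.73 in control, 0.97 in induced and 0.81 in non-induced cells. Bins 3 positions from the nearest early bin averaged -0.46 in KO, -0.40 in control, -0.49 in induced and -0.41 in non-induced cells. The rule fixes part of the first step, since the first bin outside missed 0.5 on at least 1 array. Inside, the third bin from the edge averaged 0.90 in KO, 0.90 in control, 1.11 in induced and 0.89 in non-induced cells. For domains of any length, the next bin outside was measured at 1354 edges. A single bin with early bins on both sides counts for each side. The bin outside was still at 0.5 or more at 43.7% of these edges in KO, 41.1% in control, 73.4% in induced and 53.6% in non-induced cells. It was below 0 at 14.6% of them in KO, 10.3% in control, 5.32% in induced and 4.58% in non-induced cells.

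**Figure D2:**
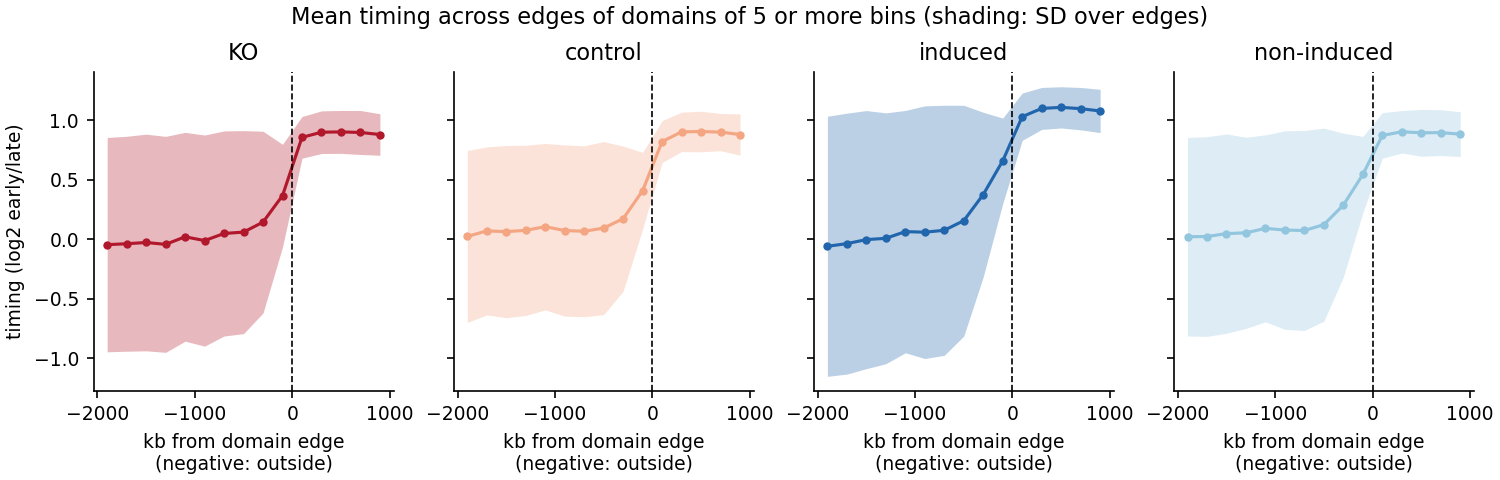
Mean timing (vertical axis, log2 of early over late signal) against distance in kb from the edge of early domains of 5 or more bins (horizontal axis, outside negative) on the KO, control, induced and non-induced arrays; shading is the SD over edges. The outermost inside bin averages 0.86 in KO, 0.82 in control, 1.03 in induced and 0.87 in non-induced cells, the next 0.90, 0.90, 1.10 and 0.90, and the mean drops within the first 3 bins outside. Bins further outside than the first can belong to another early domain.

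Some breaks between domains were shallow. In 180 cases a single bin that missed the rule separated early bins on both sides, and 131 of these fell short on 1 array only. In these gaps KO was below 0.5 in 91 bins, control in 44, induced in 8 and non-induced in 93. Of the 180, 3 went below 0 on any array. The deepest was on chromosome 8 from 74400001 to 74600000, at -0.27 ± 0.15 in KO, -0.13 ± 0.08 in control, 0.74 ± 0.14 in induced and 0.60 ± 0.13 in non-induced cells (SE over 17 probes). Away from the domains, timing changed with distance. Bins 2 positions (400 kb) from the nearest early bin averaged -0.17 in KO, -0.13 in control, 0.03 in induced and 0.03 in non-induced cells, and 10.3% of them were late on all arrays. At 4 positions (800 kb) the averages were -0.56, -0.48, -0.77 and -0.58, and 45.7% were late on all arrays.

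The share of early bins differed between chromosomes by more than 2-fold. Chromosome 11 had the largest, with 206 of 578 bins (35.6%), and it also had the smallest share of bins late on all arrays (15.2%). Chromosomes 19 and 15 followed with 29.2% and 27.6%. Chromosome 14 had the smallest share, with 85 of 546 bins (15.6%), and chromosomes 8 and 13 had 16.6% and 17.6%. Few early bins did not always mean many late ones: chromosome 14 had 23.3% of its bins late on all arrays, and chromosome 3, with 19.8% early, had the most late ones at 34.3%. On chromosome 13, 37.2% of bins were at 0.5 or more in KO, against 26.0% in control, 29.7% in induced and 27.5% in non-induced cells. Over all autosomal bins these shares were 32.5%, 28.1%, 34.3% and 32.2% in the same order. A higher share in KO than in control was not particular to chromosome 13. It was seen on every autosome but chromosome 15 (35.5% in KO, 36.9% in control). The probe number moves with these shares: across the 19 chromosomes the share of early bins and the mean number of probes per bin had Pearson's r = 0.69 and Spearman's rho = 0.61, given as a description.

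**Figure D3:**
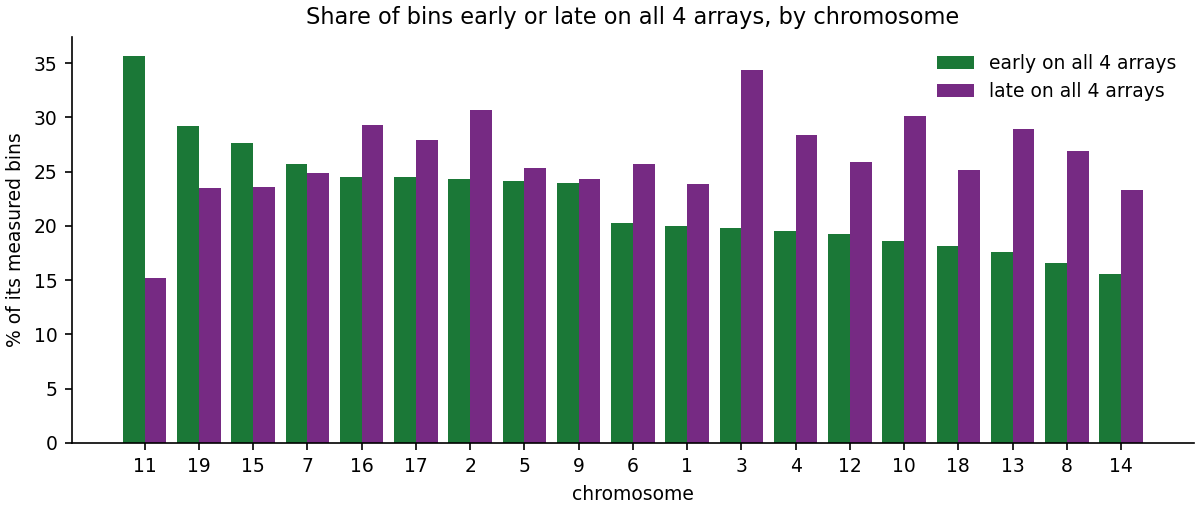
Share of measured 200 kb bins (vertical axis, %) that were early (green, timing 0.5 or more) or late (purple, -0.5 or less) on all 4 arrays, for each autosome (horizontal axis), ordered by the early share. Chromosome 11 stands highest at 35.6% early and 15.2% late, and chromosome 14 lowest at 15.6% early.

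Early bins were dense in probes, which the rule did not use beyond its minimum of 5. They had a median of 18 probes, against 13 in the rest of the bins and 11 in bins late on all arrays. Of 3244 bins with 5 to 9 probes, 5.24% were early on all arrays, compared with 31.3% of 3516 bins with 15 to 19 probes and 35.0% of 2450 bins with 20 to 24. The part of probe number in the shares was not tested. Early bins were also uneven along chromosomes. Mouse autosomes have their centromere at one end, where their coordinates begin, and within 10 Mb of the first measured bin 116 of 878 bins (13.2%) were early on all arrays. Within 10 Mb of the last measured bin the share was 256 of 906 (28.3%), and between these it was 22.3%.

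Early bins departed from the channel medians by unequal amounts on some arrays. Relative to the autosomal median of each channel, early bins had a median early signal of 0.51 in KO, 0.19 in control, 0.62 in induced and 0.60 in non-induced cells (log2). Their median late signal was -0.45 in KO, -0.69 in control, -0.44 in induced and -0.23 in non-induced cells. With this centring, the late channel lay further from its median than the early channel on the control array. On the non-induced array the early channel lay further. A shift common to both channels cancels in the ratio but moves this split. The median KO minus control difference in early bins was 0.28 in the early channel and 0.22 in the late channel. Which channel carried the ratio was not tested. Early signal was above the array's median in 83.4% of early bins in KO, 66.6% in control, 94.7% in induced and 92.4% in non-induced cells. Probes in early bins were well above background in both channels in 93.5% of cases in KO, 88.7% in control, 95.8% in induced and 97.1% in non-induced cells. Over all usable autosomal probes the shares were 93.2%, 94.1%, 89.1% and 94.9% in the same order. In bins late on all arrays they were 91.9%, 98.0%, 80.8% and 92.3%. Only on the control array was the share in early bins below that over all probes.

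For KO against control, which asks whether timing differs when Suv4-20h1 is deleted, early bins showed almost no shift as centred. The median KO minus control difference over the 2499 bins was 0.01 (quartiles -0.11 and 0.13), with 1300 bins (52.0%) above 0, where 35.7% of all bins were, and 1199 below. Over all 11314 bins the median was -0.15, and over the 2988 bins late on all arrays it was -0.35. At least 0.5 log2 higher in KO were 18 early bins (0.720%), where 7.28% of all bins were, and at least 0.5 lower were 5 (0.200%), where 23.1% of all bins were. Requiring 0.5 or more on every array bounds these differences, so the counts were repeated on bins chosen on the induced and non-induced arrays alone. In those 3489 bins timing averaged 0.75 ± 0.33 in KO and 0.71 ± 0.32 in control cells (SD over bins), with a median difference of 0.02, 219 bins at least 0.5 higher in KO (6.28%) and 88 at least 0.5 lower (2.52%). Scaled to equal spread, the balance of these bins turned, with a median of -0.19, 152 bins higher (4.36%) and 366 lower (10.5%). Of all bins, 8.18% were at least 0.5 higher and 18.9% at least 0.5 lower after scaling. In the 4375 bins late on the same pair the median was -0.36, with 1487 bins (34.0%) at least 0.5 lower. In the 2499 early bins scaling moved the median to -0.22, with 1 bin at least 0.5 higher (0.0400%) and 208 lower (8.32%). Both shares were below those of all bins after scaling, and the rule bounds them. Since the median changed sign, no direction of KO against control can be given for early bins. The median of all bins was -0.17 after scaling, below 0 as before.

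Single early bins went further than the median in both directions. Chromosome 1 held 2 of the 3 with the highest KO minus control difference. From 163000001 to 163200000 timing was 1.18 ± 0.09 in KO and 0.50 ± 0.13 in control cells and the difference 0.68 ± 0.11 (SE over 19 probes), with 0.93 in both induced and non-induced cells. From 166400001 to 166600000 it was 1.24 ± 0.11 in KO and 0.62 ± 0.13 in control cells (SE over 7 probes). On chromosome 18 from 57600001 to 57800000, KO cells had 1.18 ± 0.09 and control cells 0.52 ± 0.09, and they differed by 0.66 ± 0.07 (SE over 20 probes). The lowest difference was on chromosome 13 from 108400001 to 108600000, with 0.56 ± 0.14 in KO and 1.12 ± 0.16 in control cells, at -0.57 ± 0.11 (SE over 14 probes). On chromosome 5 from 32000001 to 32200000, at the edge of one of the longest domains, KO cells had 0.66 and control cells 1.18, with a KO minus control value of -0.53 ± 0.10 (SE over 17 probes). These are the ends of 2499 ranked differences without a replicate. After scaling, the differences at 163000001 on chromosome 1 and at 57600001 on chromosome 18 were 0.52 and 0.50, and that on chromosome 13 was -0.85.

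For induced against non-induced cells, which asks how timing differs upon induction, early bins were higher on the induced array as centred. The median induced minus non-induced difference was 0.18 (quartiles 0.08 and 0.28), and 2233 of 2499 bins (89.4%) were above 0, where 37.9% of all bins were. Over all bins the median was -0.11, and over bins late on all arrays -0.39. At least 0.5 log2 higher in induced cells were 23 early bins (0.920%), where 0.689% of all bins were, and none was at least 0.5 lower, where 18.8% of all bins were, a count that the rule bounds. Scaled to the same spread, the median of early bins turned to -0.08, with 760 bins (30.4%) above 0. The median of all bins was then -0.09, with 32.4% of them above 0. In 2801 bins chosen on KO and control alone, timing averaged 0.99 ± 0.31 in induced and 0.81 ± 0.27 in non-induced cells (SD over bins). Their median difference was 0.18 as centred, with 52 bins (1.86%) at least 0.5 higher in induced cells and 6 (0.214%) lower. Scaled, the median was -0.07, with 2 (0.0714%) higher and 6 (0.214%) lower, where 0.203% and 5.49% of all bins were. With quantile normalization, and early bins chosen anew, the median stayed above 0 at 0.06, so the direction depended on how the arrays were brought to one range. As centred, the median was above 0 on each of the 19 autosomes, from 0.14 to 0.22. The channels differed: the median change of early signal in these bins was 0.02 and that of late signal was -0.22, each centred on its own channel's autosomal median and not scaled.

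Again a few bins stood out. The highest was on chromosome 10 from 79800001 to 80000000, with 1.32 ± 0.18 in induced and 0.64 ± 0.13 in non-induced cells and 0.69 ± 0.13 between them (SE over 20 probes), against 0.69 in KO and 0.73 in control cells. On chromosome 7 from 117800001 to 118000000 induced cells had 1.32 ± 0.18 and non-induced cells 0.69 ± 0.13, which differed by 0.63 ± 0.11 (SE over 14 probes). After scaling these differences were 0.41 and 0.35. Lowest was chromosome 5 from 21000001 to 21200000, with 0.51 ± 0.05 in induced and 0.86 ± 0.07 in non-induced cells and -0.35 ± 0.06 between them (SE over 17 probes), against 1.08 in KO and 0.83 in control cells. Chromosome 2 from 13600001 to 13800000 had 0.52 in induced and 0.86 in non-induced cells and -0.34 ± 0.09 between them (SE over 19 probes). In both of these bins the induced array was the lowest of the 4, which was so in 79 early bins.

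**Figure D4:**
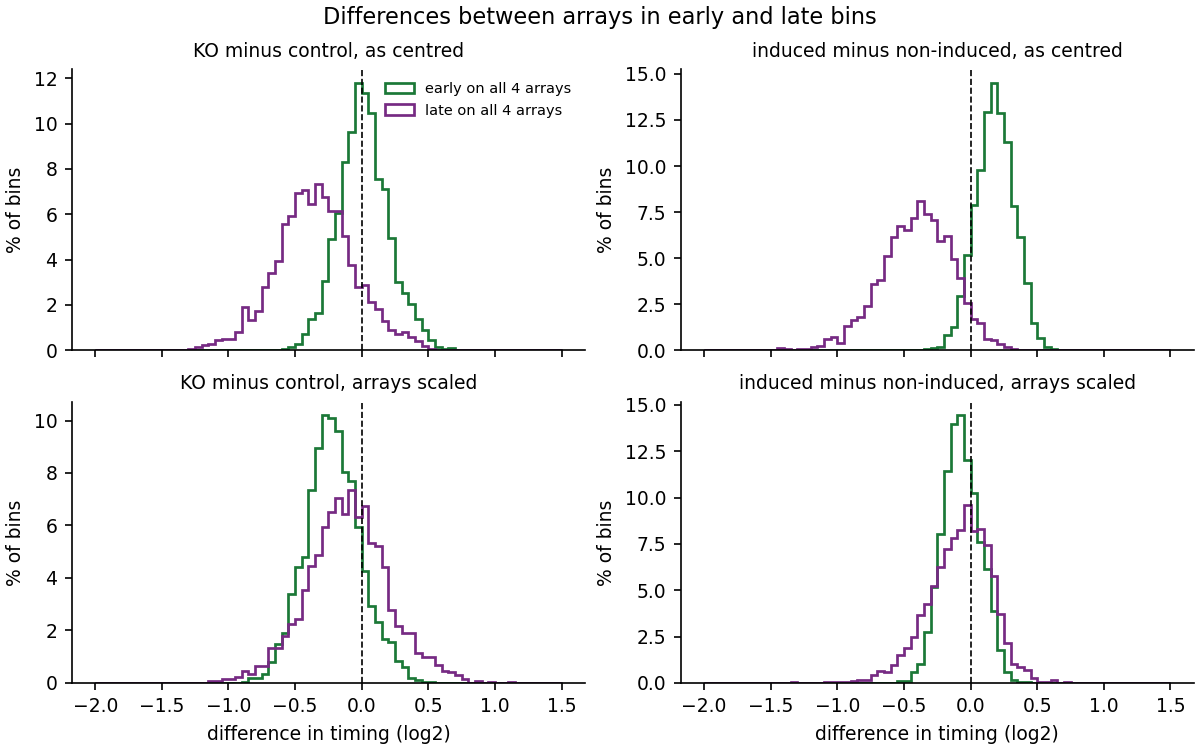
Distribution of timing differences (horizontal axis, log2) for KO minus control (left) and induced minus non-induced (right), as a share of bins (vertical axis, %), in bins early (green) and late (purple) on all 4 arrays; the upper row is as centred and the lower row has arrays brought to equal spread. Early bins have medians of 0.01 and 0.18 as centred and of -0.22 and -0.08 after scaling.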

How the data were processed

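The scanner software was Agilent Feature Extraction, version 11.5.1.1 per the file headers and 9.1 per the submitters' processing notes. The authors' processed signal is an intensity, background-subtracted, detrended and multiplied by 1 linear dye factor per channel, per the file headers. Median spot and background intensities, which the authors deposited uncorrected, served the normexp alternative. The authors' deposited log10 ratios have late DNA on top, and their value table held the same numbers in all 174305 genomic spots of each array. Spot flags, per the file headers, are 0 or 1. Control spots were dropped, as were spots marked as non-uniform or as population outliers (154 to 447 on an array). Repeated spots were averaged by probe, which gave 169782 probes usable on all arrays, at a median spacing of 10898 bp. No loess or quantile step was applied. KO and control lay on 1 slide, induced and non-induced on another. Of genomic spots, 88.5 to 94.7% per array were well above background in both channels. Probes printed repeatedly on an array had a median SD of 0.12 to 0.16 (log2).

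SEs are over probes in a bin or domain and cover no variation between cultures. For the scaled version, each array was multiplied so that its span from the 10th to the 90th percentile over bins equalled the mean span of the 4. Named regions are the 12 longest domains and the 6 bins at each extreme of lowest-array timing, range and difference, of which at most the first 3 are printed for differences, with bins next to the threshold; bins found on an array left out and in gaps between domains were named after their values were seen. The rule, its members and these lists were chosen with earlier results of these data known. Gene lists fixed with them were not analysed here. Binning was tested on simulated data. Python 3.11.15, numpy 2.4.6, pandas 2.3.3, matplotlib 3.10.9, R 4.3.3 and limma 3.58.1 were used, limma for the normexp alternative.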

Additional observations from a re-analysis of the deposited data

Results flagged for a closer look

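Chromosome X lies outside the rule, and some of its bins were early on single arrays. In KO cells 72 of 686 X bins were at 0.5 or more, against 47 in control cells, and in induced cells 1, against 3 in non-induced cells. No X bin met the rule on all 4 arrays. The chromosome is singled out because it holds signal outside the autosomal bins, more bins in KO than in control cells, a difference that was not tested. Mean X timing ran the other way, at -0.66 in KO and -0.38 in control cells. Of autosomal bins, 32.5% in KO and 28.1% in control cells were at 0.5 or more. Total signal of X probes differed as well, by a median of -0.51 (log2, KO minus control), outside the range of the autosomes (-0.28 to 0.24), and by 0.00 between induced and non-induced; its part in the X counts was not tested. The X bin closest to the rule, from 166000001 to 166200000, had 0.72 in KO, 0.96 in control, 0.49 in induced and 0.85 in non-induced cells.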

How the results depend on the processing

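In 14 of 18 alternatives the number of early bins stayed within 1.5 times 2499. It was 1199 with a threshold of 0.75 and 1396 with normexp on median signals (1395 of them among the 2499). With bins of 100 kb it was 4273 of 15678 bins and with bins of 500 kb 1027 of 4734, where the main count was 2499 of 11314. These 2 are counts of bins of another length, so they do not show that the early part of the genome changed in extent. Leaving out each array from the rule gave 2519 to 2936. Dropping an array can only keep or add bins, so the direction of these alternatives was fixed in advance. Domains numbered 1260 with bins of 100 kb and 411 with 500 kb. Arrays scaled to the same spread kept 2434 of the 2499 bins, and 2497 remained with the deposited values.

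With early bins chosen anew under each setting, the median KO minus control difference of 0.01 turned to -0.21 after scaling, -0.041 with quantile normalization, -0.026 over well measured probes (above background on each array), -0.0052 with bins of 500 kb and -0.0086 without the KO array in the rule (-0.0086 to 0.046 over arrays left out), and it was 0.19 with arrays centred on the median bin. The median induced minus non-induced difference of 0.18 turned to -0.072 after scaling, was 0.059 with quantile normalization and 0.37 with that centring, and kept its sign in all alternatives but scaling. By construction scaling shrinks the wider array and the other centring lifts the array with the lower median bin.

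Early bins past 0.5 in either direction numbered 23 in KO minus control. They numbered 139 and 3 with thresholds of 0.25 and 0.75, 119 and 6 with bins of 100 and 500 kb, 207 after scaling, 44 with quantile normalization, 300 with centring on the median bin, 0 with normexp, 8 over well measured probes, 69 and 53 over odd and even probes, and 23 to 206 over arrays left out, with 206 without control and 68 without KO. For induced minus non-induced, 23 became 61 and 6, 131 and 0, 2, 1, 672, 0, 0, and 67 and 62 in the same order, and 23 to 52 over arrays left out, with 52 without non-induced. Of all bins as centred, 7.28% were at least 0.5 higher and 23.1% lower in KO minus control. For induced minus non-induced these shares were 0.689% and 18.8%. After scaling they were 8.18% and 18.9%, and 0.203% and 5.49%. The early bins themselves numbered from 1027 to 4273 over the alternatives. Shares over all bins are not given for the other settings, so the counts cannot be compared as shares. Other causes were not tested. No paired analysis was possible because each group has 1 array. Limits are 1 array per group, the unequal spread and centring of the arrays, and probes not well above background.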
